A study of Rattus norvegicus with 15 samples.

Results

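The 4 circular RNAs with the highest mean signal in rat blood are described here, CBT15_circR_5191, CBT15_circR_5185, CBT15_circR_5184 and CBT15_circR_1124, together with CBT15_circR_5196, a low circRNA whose running number in the table is close to those of the first 3. They are 5 of 43472 circRNAs in the deposited table, and they were chosen by their row means over all 15 libraries and by number. Their high levels are therefore a description and carry no test. The row means were 9.61 M SRPBM for CBT15_circR_5191, 2.08 M for CBT15_circR_5185, 0.581 M for CBT15_circR_5184 and 0.372 M for CBT15_circR_1124, where SRPBM is the number of back-spliced reads per 1e9 mapped reads of a library and M stands for 1e6. Just outside the rule, CBT15_circR_19347 had the fifth highest row mean, 0.0754 M, so the fourth mean was 4.93 times the fifth. CBT15_circR_5196 ranked 539 with a mean of 815 SRPBM. The 5 circRNAs together took 81.8% of the summed signal of all libraries, and CBT15_circR_5196 added less than the rounding of that share.

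Whole blood came from male Sprague-Dawley rats, an outbred strain, in which deep venous thrombosis, clotting inside a deep vein, was modelled. The 5 groups are sham (labelled 0 h) and 1 h, 6 h, 12 h and 72 h (3 d) from modelling, and each holds 3 libraries. RNA was kept and extracted with the PAXgene blood system and total RNA went into paired-end libraries. The labels name no genotype or drug and state neither how the clot was made nor whether blood was pooled or each library is its own animal, so p-values measure the spread between these libraries, which may be technical. By the prefix of their titles the libraries form 2 sets, called C here for 6 h and 12 h (6 libraries) and A&B for the other groups (9 libraries). What the prefix means is not stated, and between the sets it cannot be told apart from time.

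A circRNA is a closed loop, made when the end of an exon is joined back to the start of the same or an earlier exon of its transcript, and it is seen in sequencing as reads that span this back-splice. Loops have no free ends for exonucleases to attack, and they are known to persist in red cells and platelets after linear transcripts have decayed, which is why blood is rich in them. Several loops can arise from 1 transcript. Each row of the table is known by a running number alone. The role, strand and host of the circRNAs below are therefore not given, whether nearby numbers stand for nearby positions is not stated, and neither blood cell markers nor gene lists could be matched. In whole blood, fewer cells of a type and less circRNA per cell cannot be told apart.

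Within each library the values were whole multiples of a step, within 0.01 read for 100% of values. The smallest value above 0 was taken to stand for 2 reads, an assumption that the labels do not state. On it the step gave 66.0 to 92.4 M mapped reads per library and the reads behind each value. The table listed between 2551 and 15366 circRNAs per library. Sham replicate 2 (2958 circRNAs, 66.0 M mapped reads) and 1 h replicate 1 (2551 circRNAs, 73.3 M) listed the fewest and stood apart from the other 13 libraries, which listed at least 9354. Both stay in the main values below, and results are also given without them. A value of 0 means that the table lists none, and is not read as absence. Reads are not counted by molecule, so intervals below cover counting error only.

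CBT15_circR_5191 was the first-ranked circRNA in every library that listed it, and was otherwise at 0. In sham it lay at 9.15, 0 and 15.2 M SRPBM in replicates 1, 2 and 3, and at 1 h at 0, 0 and 9.85 M. At 6 h it lay at 9.66, 15.3 and 0 M, at 12 h at 12.1, 13.2 and 8.74 M, and at 3 d at 12.0, 10.2 and 28.7 M. The 11 listed values spanned 3.28-fold, with no value between 0 and 8.74 M, and only the 12 h and 3 d groups had it in all 3 libraries. Those values stood for 807918 to 1988289 reads, where the smallest value of a library is taken as 2 reads. It took from 55.6% (95% Wilson interval 55.5 to 55.7) of the back-spliced reads in 1 h replicate 3 to 79.0% (78.9 to 79.02) in 3 d replicate 3.

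CBT15_circR_5185 was the member listed in all 15 libraries. Its values were 1.54, 1.07 and 2.56 M SRPBM in sham, 0.656, 2.54 and 1.69 M at 1 h and 1.54, 2.45 and 2.76 M at 6 h. At 12 h they were 1.98, 1.98 and 1.39 M and at 3 d 2.10, 1.99 and 4.90 M. Every pair of groups overlapped except 12 h and 3 d, whose nearest values were 1.982 and 1.988 M. These groups lie in different library sets, and the share of all circRNAs without overlap between them was not counted. Between the groups compared below, up to 8% of circRNAs did not overlap in 1 direction. The lowest values, 48082 and 70515 reads, were those of 1 h replicate 1 and sham replicate 2, the libraries with the fewest circRNAs, and the highest, 339818 reads in 3 d replicate 3, was 7.47 times the lowest. The 1 h group had the lowest mean, 1.63 ± 0.942 M, and sham had 1.72 ± 0.762 M (SD, n = 3 in every group). The 12 h mean was 1.78 ± 0.344 M, that of 6 h was 2.25 ± 0.636 M, and the 3 d group had the highest, 3.00 ± 1.65 M. Each step between neighbours in this order was smaller than the larger of their SDs.

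CBT15_circR_5184, the number next to CBT15_circR_5185, was listed in 5 libraries. It lay at 1.69, 1.74 and 1.12 M SRPBM at 12 h, at 2.11 M in 1 h replicate 2 and at 2.06 M in 6 h replicate 3. It was listed at 0 in the other 10 libraries, among them all 3 of sham and all 3 of 3 d. The 5 values stood for 103195 to 177714 reads and spanned 1.89-fold. The 12 h group was thus the one group with this circRNA throughout.

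CBT15_circR_1124 was listed in 3 libraries, with 1 library each at 1 h, 6 h and 12 h. The values were 2.02 M SRPBM in 1 h replicate 3, 2.21 M in 6 h replicate 2 and 1.34 M in 12 h replicate 2 (118655 to 183021 reads). It was at 0 in the other 12 libraries, and no group held it throughout. In each of the 3, CBT15_circR_5191 was listed too.

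CBT15_circR_5196 lay far lower, and was also at 0 in many libraries. It was listed at 2275, 2317 and 2364 SRPBM at 6 h and at 1565, 1631 and 0 SRPBM at 12 h. In set A&B it was listed in sham replicate 3 (940 SRPBM) and 1 h replicate 2 (1127 SRPBM), and in no 3 d library. These 7 values stood for 81 to 198 reads. The 6 h group had a mean of 2319 ± 44.6 SRPBM (SD, n = 3), and its libraries lay above all others. Against sham alone, 8% of circRNAs tested were higher at 6 h without overlap, and the share against all other groups was not counted. The 5 listed libraries of set C lay above both listed libraries of set A&B, but with 12 h replicate 3 at 0 the sets overlapped. The share of circRNAs that lie apart in this way among listed libraries alone was not counted.

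**Figure D1:**
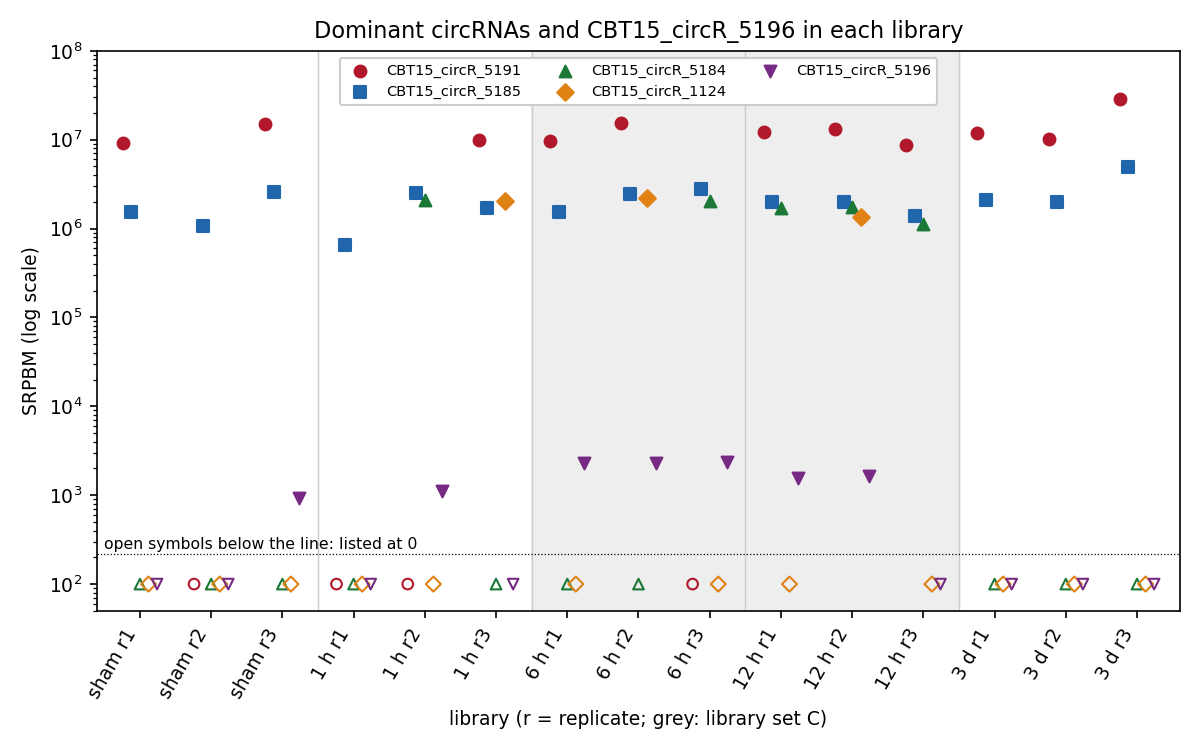
SRPBM on a log scale of the 5 circRNAs in each of the 15 libraries, with 1 symbol per circRNA and open symbols for libraries that list it at 0. CBT15_circR_5185 is filled in all 15 libraries, CBT15_circR_5191 in 11, CBT15_circR_5196 in 7, CBT15_circR_5184 in 5 and CBT15_circR_1124 in 3.

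The circRNAs were listed together in many combinations. A single library, 12 h replicate 2, listed all 5, 2 libraries listed 4, 6 listed 3, 4 listed 2 and 2 listed only CBT15_circR_5185. The last 2 were sham replicate 2 and 1 h replicate 1. CBT15_circR_5191 and CBT15_circR_5184 were both listed in 3 libraries (12 h), CBT15_circR_5191 without CBT15_circR_5184 in 8, CBT15_circR_5184 without CBT15_circR_5191 in 2 (1 h replicate 2 and 6 h replicate 3) and neither in 2. CBT15_circR_5184 and CBT15_circR_1124 shared 1 library, 12 h replicate 2. CBT15_circR_5196 was listed in 4 of the 5 libraries with CBT15_circR_5184 and in 2 of the 3 with CBT15_circR_1124. The 3 d group had the same listing in all 3 libraries, CBT15_circR_5191 and CBT15_circR_5185 alone.

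Zeros were rare among circRNAs with a high mean where listed, most of which lay far below the members with zeros. Of the 23 circRNAs whose mean over the libraries that list them was at least 10000 SRPBM, 20 were listed in all 15 libraries, and the other 3 were CBT15_circR_5191, CBT15_circR_5184 and CBT15_circR_1124. These 3 lay at 1.12 M SRPBM or more where listed, while no circRNA outside the 5 members exceeded 120197 SRPBM in any library. Only CBT15_circR_5185 reached their levels without a zero. Whether zeros are rare at the levels of these 3 therefore cannot be told from the other circRNAs. At 3000 SRPBM and above there were 116 circRNAs, 103 of them listed in all 15 libraries. The rule chose these members on their means, so the count describes them and is not a test. Of the 4 libraries without CBT15_circR_5191, 1 h replicate 2 and 6 h replicate 3 had 84.3 and 82.1 M mapped reads and listed 11647 and 14900 circRNAs, within the range of the libraries that list it.

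The members' share of the circRNA signal was lower where CBT15_circR_5191 was at 0. This follows from its own share, 55.6% to 79.0% where listed, and is not a separate result. In the 11 libraries with it, the 5 circRNAs together took from 76.5% (95% Wilson interval 76.47 to 76.6) of the signal in 1 h replicate 3 to 92.5% (92.4 to 92.5) in 3 d replicate 3. In the 4 without it they took 35.0% (sham replicate 2), 40.5% (1 h replicate 1), 59.6% (1 h replicate 2) and 55.7% (6 h replicate 3). In 3 d replicate 3 they made up 3.36% of all mapped reads, and in 1 h replicate 1 0.0656%. Total circRNA signal ran from 1.62 to 36.3 M SRPBM between libraries, a 22.4-fold range, and without the 5 circRNAs from 0.962 to 4.16 M, a 4.32-fold range.

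**Figure D2:**
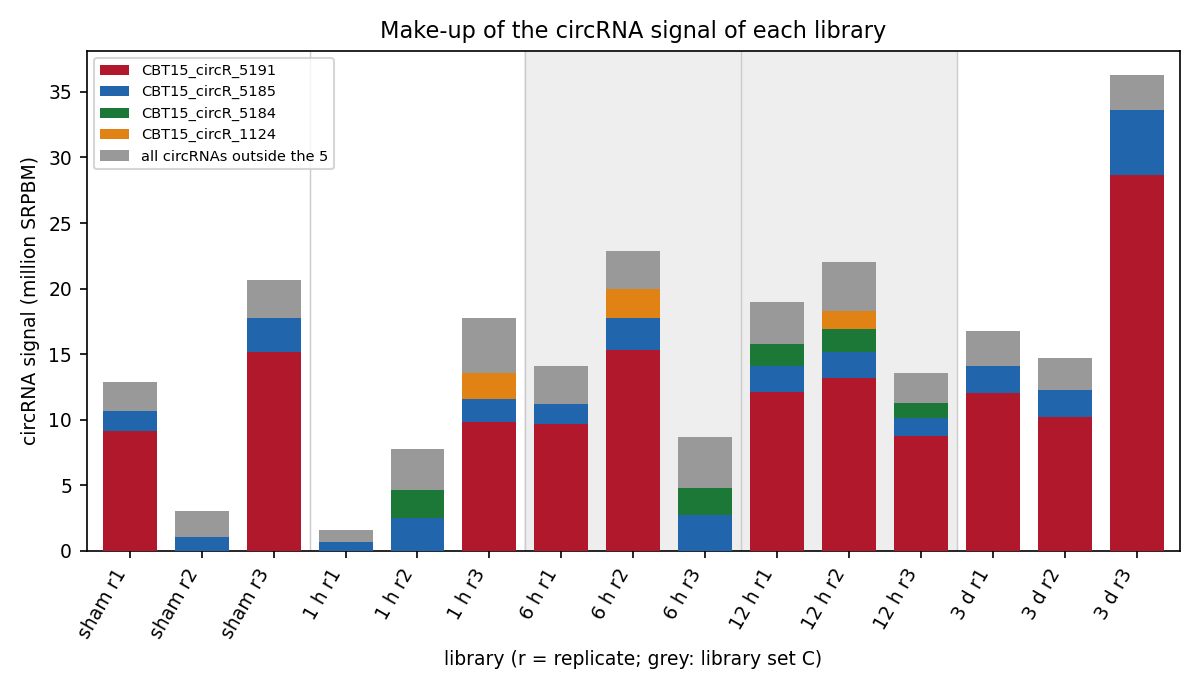
Stacked bars of circRNA signal in M SRPBM for each library, split into CBT15_circR_5191, CBT15_circR_5185, CBT15_circR_5184, CBT15_circR_1124 and all circRNAs outside the 5 (CBT15_circR_5196 is too low to see). The tallest bar, 3 d replicate 3 at 36.3 M, has 2.73 M from circRNAs outside the 5, close to the 2.66 and 2.47 M of the other 3 d libraries.

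The signal of all circRNAs outside the 5, which the choice of members did not use, was compared between groups. It averaged 3.07 ± 0.743 M SRPBM at 12 h and 2.36 ± 0.489 M in sham (SD, n = 3 each; two-sided exact permutation p = 0.2, adjusted p = 0.3 over 3 tests). The smallest p such a test of 3 against 3 allows is 0.1. At 3 d it averaged 2.62 ± 0.136 M and at 1 h 2.76 ± 1.63 M (exact permutation p = 1, adjusted p = 1). Set C averaged 3.14 ± 0.589 M (n = 6) and set A&B 2.58 ± 0.873 M (n = 9; exact permutation p = 0.191, adjusted p = 0.3). None of the 3 differences exceeded the larger SD of the groups compared.

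Where CBT15_circR_5191 was listed, it kept close to a fixed ratio to CBT15_circR_5185. The ratio was 5.94 and 5.93 in sham replicates 1 and 3, 5.83 in 1 h replicate 3, 6.29 and 6.26 in 6 h replicates 1 and 2, 6.12, 6.66 and 6.31 at 12 h, and 5.74, 5.15 and 5.85 at 3 d. Its mean was 6.01 ± 0.394 (SD, n = 11 libraries), a coefficient of variation (CV, the SD over the mean) of 6.55%, while the level of CBT15_circR_5191 spanned 3.28-fold over the same libraries. In 3 d replicate 3, where both circRNAs were at their highest, the ratio was 5.85 (95% counting interval 5.83 to 5.87). In 3 d replicate 2 it was lowest, at 5.15 (5.12 to 5.18). That counting interval overlapped that of no other library, and the same held for 12 h replicates 1 and 2 and for 3 d replicate 1.

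This spread was set beside that of other circRNAs. Of 2979 circRNAs listed in these 11 libraries besides CBT15_circR_5185, CBT15_circR_5191 had the smallest CV of its ratio to CBT15_circR_5185. The other 2978 ran from 22.4% upwards with a median of 50.6%, and the 169 of them with at least 100 reads in each library ran from 24.2% upwards with a median of 38.2%. The ratio takes out any factor that a library applies to both circRNAs alike. With each of the 6 next most abundant circRNAs in the place of CBT15_circR_5185, and the 5 members left out, the smallest CV was between 9.26% and 64.2%.

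**Figure D3:**
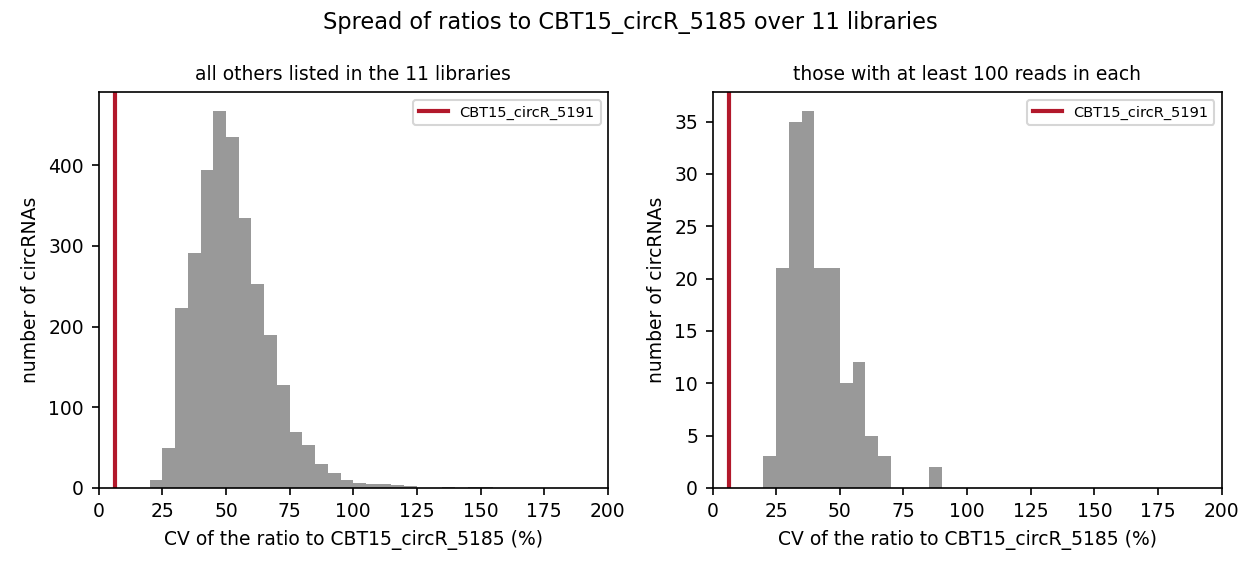
Number of circRNAs by the CV, in percent, of their ratio to CBT15_circR_5185 over the 11 libraries that list CBT15_circR_5191, for all 2978 others (left) and for the 169 with at least 100 reads in each library (right). The line for CBT15_circR_5191 at 6.55% lies below every bar.

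The ratio of CBT15_circR_5191 to CBT15_circR_5185 did not overlap between the library sets. In set C it ran from 6.12 to 6.66 (mean 6.33 ± 0.2, SD, n = 5) and in set A&B from 5.15 to 5.94 (5.74 ± 0.298, n = 6). Of the 2979 circRNAs, 1.44% had a ratio to CBT15_circR_5185 that lay higher in set C without overlap, and 0% lower. The pattern was seen in the values first and is given as a description. The libraries were 2 at 6 h and 3 at 12 h in set C, and 2 of sham, 1 at 1 h and 3 at 3 d in set A&B. No group lies in both sets, so the sets cannot be told apart from time. In the same 11 libraries the level of CBT15_circR_5191 itself overlapped between the sets (8.74 to 15.3 M in set C and 9.15 to 28.7 M in set A&B).

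CBT15_circR_5184 also stayed near a fixed ratio to CBT15_circR_5185. The ratio was 0.832 in 1 h replicate 2, 0.747 in 6 h replicate 3 and 0.853, 0.877 and 0.806 at 12 h, a mean of 0.823 ± 0.0499 (SD, n = 5) and a CV of 6.06%. Among 4540 circRNAs listed in these 5 libraries it had the sixth smallest CV, and of the 255 others with at least 100 reads in each, 1 had a smaller one. In the 3 libraries at 12 h that list both, CBT15_circR_5191 lay at 7.18, 7.59 and 7.83 times CBT15_circR_5184.

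The ratios of the other 2 members varied more. CBT15_circR_1124 lay at 1.19 times CBT15_circR_5185 in 1 h replicate 3, 0.902 times in 6 h replicate 2 and 0.678 times in 12 h replicate 2, a CV of 28.0% over 3 libraries, and 114 of 326 circRNAs with at least 100 reads had a smaller CV there. CBT15_circR_5196 lay between 0.0367% and 0.148% of the level of CBT15_circR_5185, a CV of 44.8% over 7 libraries. Its percentage was 0.079 to 0.148 in the 5 libraries of set C and 0.0367 and 0.0445 in the 2 of set A&B. How many circRNAs lie apart in this way over these 7 libraries was not counted.

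**Figure D4:**
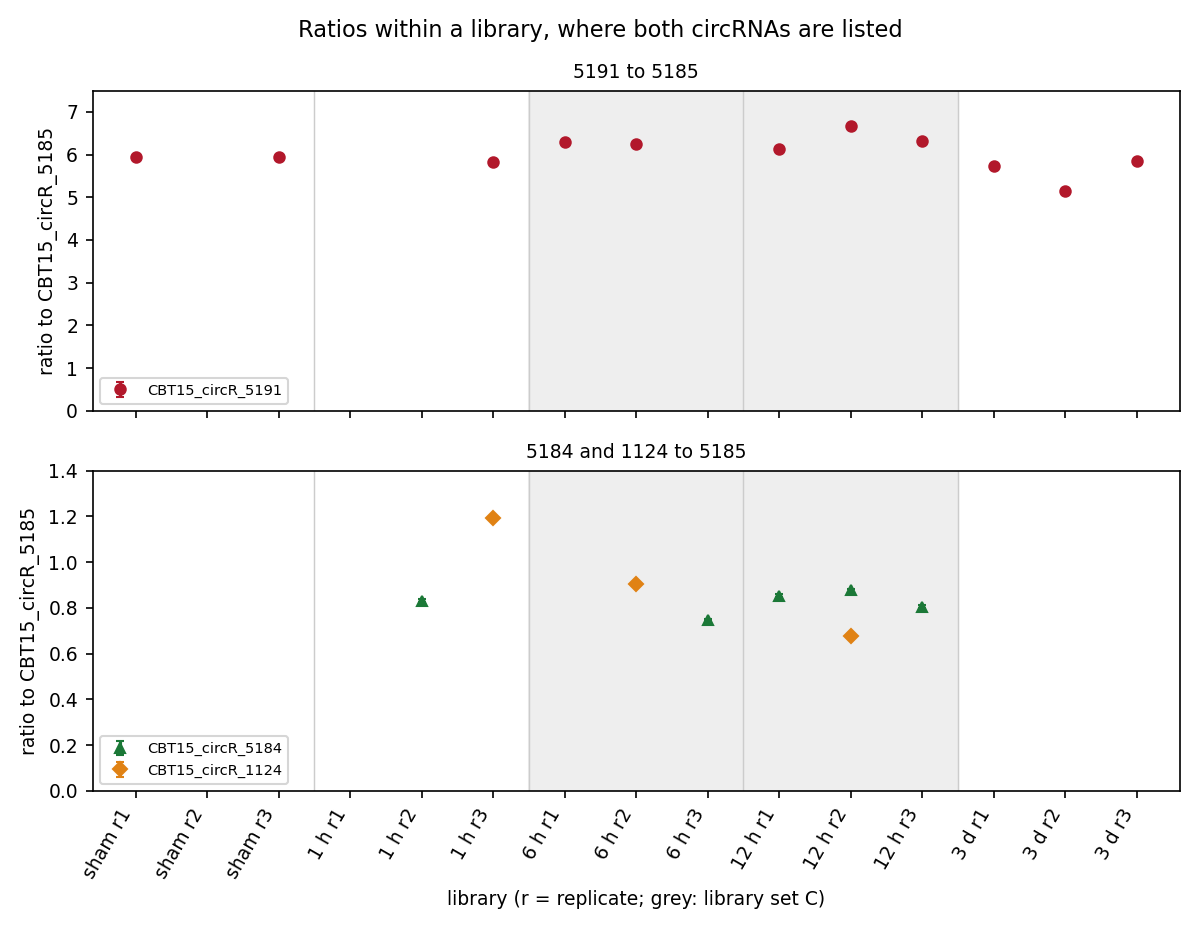
Ratio of CBT15_circR_5191 (top) and of CBT15_circR_5184 and CBT15_circR_1124 (bottom) to CBT15_circR_5185 in each library that lists both, with 95% counting intervals that are mostly smaller than the symbols and library set C in grey. The top ratios lie between 5.15 and 6.66, and those of CBT15_circR_5184 between 0.747 and 0.877.

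The zeros can be read against these ratios. At the lowest ratio seen, 5.15, the reads of CBT15_circR_5185 in the 4 libraries without CBT15_circR_5191 would correspond to 363203 reads of the latter in sham replicate 2, 247657 in 1 h replicate 1, 1100822 in 1 h replicate 2 and 1166215 in 6 h replicate 3, where the table lists none. For CBT15_circR_5184 the lowest ratio would correspond to 35932 to 253947 reads in the 10 libraries without it, and for CBT15_circR_1124 to 32605 to 230434 reads in 12. For CBT15_circR_5196 it would correspond to 18 to 125 reads in 8 libraries. The ratios come only from libraries that list both circRNAs. Those of CBT15_circR_1124 and CBT15_circR_5196 varied (CV 28.0% and 44.8%), so their numbers are rough. The thresholds for calling a circRNA are not stated, and why a library lists none was not tested.

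Differences between groups were fitted for every circRNA listed in at least 3 libraries (16767, all 5 members among them) with limma on log2(SRPBM + 23.2), with the spread not tied to mean abundance and calls at an adjusted p under 0.05. None of the members was called in any of the 7 comparisons. CBT15_circR_5191 had a residual SD of 8.46 on the log2 scale, the widest of all circRNAs tested, CBT15_circR_1124 7.27, CBT15_circR_5184 6.01 and CBT15_circR_5196 2.56, against a median of 0.946. CBT15_circR_5185 had 0.667. Of the 35 unadjusted p-values of the members, 6 were under 0.05, all from CBT15_circR_5184, CBT15_circR_5196 and CBT15_circR_5191. Over all circRNAs and these comparisons, 5.85% of 117369 unadjusted p-values were under 0.05. The members were chosen with earlier results known and the comparisons share libraries, so the 2 shares are descriptions and no test. Of 16767 circRNAs, 1382 were under 0.05 at 6 h and 1188 at 12 h against sham, and 1673 between the sets, where 4 of the 6 member values lie. With the spread tied to mean abundance, limma takes a residual SD of 0.225 as typical for circRNAs as abundant as CBT15_circR_5191, and 15 of the member comparisons passed. Log2 changes are on the scale with the pseudocount and depend on it where libraries are at 0. They are not given where all libraries of a group are at 0 before any library is left out.

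For 1 h against sham, limma called 0 of the 5 members, beside 0% of all circRNAs tested (0 of 16767, with 548 at an unadjusted p under 0.05). CBT15_circR_5191 was listed in 1 library at 1 h and 2 in sham (log2 change -6.40, SE 4.86, adjusted p = 1). CBT15_circR_5185 differed by -0.19 (SE 0.66, adjusted p = 1). No member's groups were free of overlap, while 1.1% of circRNAs tested were higher and 0.555% lower without overlap. The level of CBT15_circR_5185 turned from lower to higher without 1 h replicate 1 (0.36), without sham replicate 3 (0.14) and scaled to total circRNA signal (0.43). Tying the spread to abundance gave calls for 0.0239% of circRNAs, among them CBT15_circR_5191 (adjusted p = 0.00334, over all alternatives 0.000709 to 1) and CBT15_circR_5184, which was listed in 1 h replicate 2 alone (0.0242, over all alternatives 0.0242 to 1).

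For 6 h against sham, limma called 0 of the 5 members, beside 0.00596% of circRNAs. CBT15_circR_5196 was the member whose groups did not overlap, at 2275 to 2364 SRPBM against 0, 0 and 940, where 8% of circRNAs tested were higher and 0.59% lower without overlap. Its log2 change was 4.87 (SE 1.56, limma adjusted p = 0.531, over the alternatives 0.0126 to 0.985). Under limma with the spread tied to abundance, the calls were 0.0477% of circRNAs, among them CBT15_circR_5196 and CBT15_circR_5184, which was listed in 6 h replicate 3 alone (adjusted p = 0.0168, over its alternatives 0.0168 to 1). CBT15_circR_5191, listed in 2 libraries of each group, differed by 0.03 (SE 4.86, limma adjusted p = 1), and by -6.29 without sham replicate 2.

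For 12 h against sham, limma called 0 of the 5 members, beside 0.00596% of circRNAs. CBT15_circR_5184 was at 1.12 to 1.74 M SRPBM in all 3 libraries at 12 h and at 0 in all 3 of sham, and 6.43% of circRNAs tested were higher and 0.573% lower at 12 h without overlap. Its unadjusted limma p was 0.000168 and its adjusted p 0.351. Over 16 alternatives that value ran from 1.31e-28, with the spread tied to abundance, to 1, and a limma fit of only these 2 groups gave 1.13e-07. CBT15_circR_5191 was at a log2 change of 6.24 (SE 4.86, adjusted p = 0.771), and at -0.08 without sham replicate 2, the sham library that lists none. With the spread tied to abundance limma called 0.0477% of circRNAs, both of these members among them.

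For 3 d against sham, limma called 0 of the 5 members, beside 0% of circRNAs (0 of 16767, with 779 at an unadjusted p under 0.05). CBT15_circR_5191 was at 10.2 to 28.7 M SRPBM at 3 d and at 0, 9.15 and 15.2 M in sham (log2 change 6.69, SE 4.86, limma adjusted p = 0.958). That change was 0.37 without sham replicate 2, the sham library that lists none, and 10.03 without sham replicate 3. CBT15_circR_5185 differed by 0.76 (SE 0.66, limma adjusted p = 0.958), and by -0.39 when each library was scaled to its total circRNA signal. CBT15_circR_5184 and CBT15_circR_1124 were at 0 in all 6 libraries. The groups of every member overlapped, while 3.64% of circRNAs tested were higher and 0.883% lower without overlap. Tying the spread to abundance gave calls for 0.0537%, among them CBT15_circR_5191 (adjusted p = 0.00106, over its alternatives 0.00106 to 1) and CBT15_circR_5185 (0.00108, over its alternatives 0.00108 to 1).

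For 3 d against 1 h, both in set A&B, limma called 0 of the 5 members, beside 0% of circRNAs (0 of 16767, with 776 at an unadjusted p under 0.05). CBT15_circR_5191 did not overlap, at 10.2, 12.0 and 28.7 M SRPBM against 0, 0 and 9.85 M, where 3.17% of circRNAs tested were higher and 1.39% lower without overlap. Its log2 change was 13.1 (SE 4.86, limma adjusted p = 0.942). CBT15_circR_5185 differed by 0.95 (SE 0.66, limma adjusted p = 0.942), and by -0.82 when scaled to total circRNA signal. Under limma with the spread tied to abundance, the calls were 0.0358% of circRNAs, among them CBT15_circR_5191 (adjusted p = 2.08e-18, over its alternatives up to 0.973), CBT15_circR_5185 (8.91e-07, up to 0.973) and CBT15_circR_5184 (0.018, up to 1).

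For 12 h against 6 h, both in set C, limma called 0 of the 5 members, beside 0% of circRNAs (0 of 16767, with 523 at an unadjusted p under 0.05). CBT15_circR_5184 was listed in 3 libraries at 12 h and 1 at 6 h, and the 6 h library lay above all 3 (log2 change 10.5, SE 3.48, limma adjusted p = 1). CBT15_circR_5196 was lower at 12 h without overlap (0, 1565 and 1631 against 2275 to 2364 SRPBM), where 3.35% of circRNAs tested were lower and 2.21% higher without overlap (log2 change -2.57, SE 1.56, limma adjusted p = 1). With the spread tied to abundance limma called 0.0119% of circRNAs, CBT15_circR_5184 (adjusted p = 1.37e-12, over its alternatives up to 1) and CBT15_circR_5191 (0.00713, up to 1).

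For set C against A&B, limma called 0 of the 5 members, beside 0.00596% of circRNAs. CBT15_circR_5184 was listed in 4 of 6 libraries of set C and 1 of 9 of set A&B (log2 change 8.89, SE 2.24, limma adjusted p = 0.191), and passed without 1 h replicate 2 (adjusted p = 0.0157, over all alternatives 7.12e-22 to 0.543). CBT15_circR_5196 was listed in 5 of 6 and 2 of 9 (log2 change 4.15, SE 1.01, limma adjusted p = 0.171, over the alternatives 1.06e-05 to 0.506). CBT15_circR_5185, CBT15_circR_5191 and CBT15_circR_1124 differed by 0.09, 3.04 and 3.57 (SE 0.43, 3.14 and 2.70, limma adjusted p = 0.951, 0.754 and 0.662). Tying the spread to abundance gave calls for 0.0775% of circRNAs, among them CBT15_circR_5184 and CBT15_circR_5196. The sets overlapped for every member, while 0.173% of circRNAs tested were higher and 0% lower in set C without overlap. The one circRNA called in this comparison, and in 6 h and 12 h against sham, was CBT15_circR_6449, named after its values were seen. The comparisons with sham share the sham libraries.

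**Figure D5:**
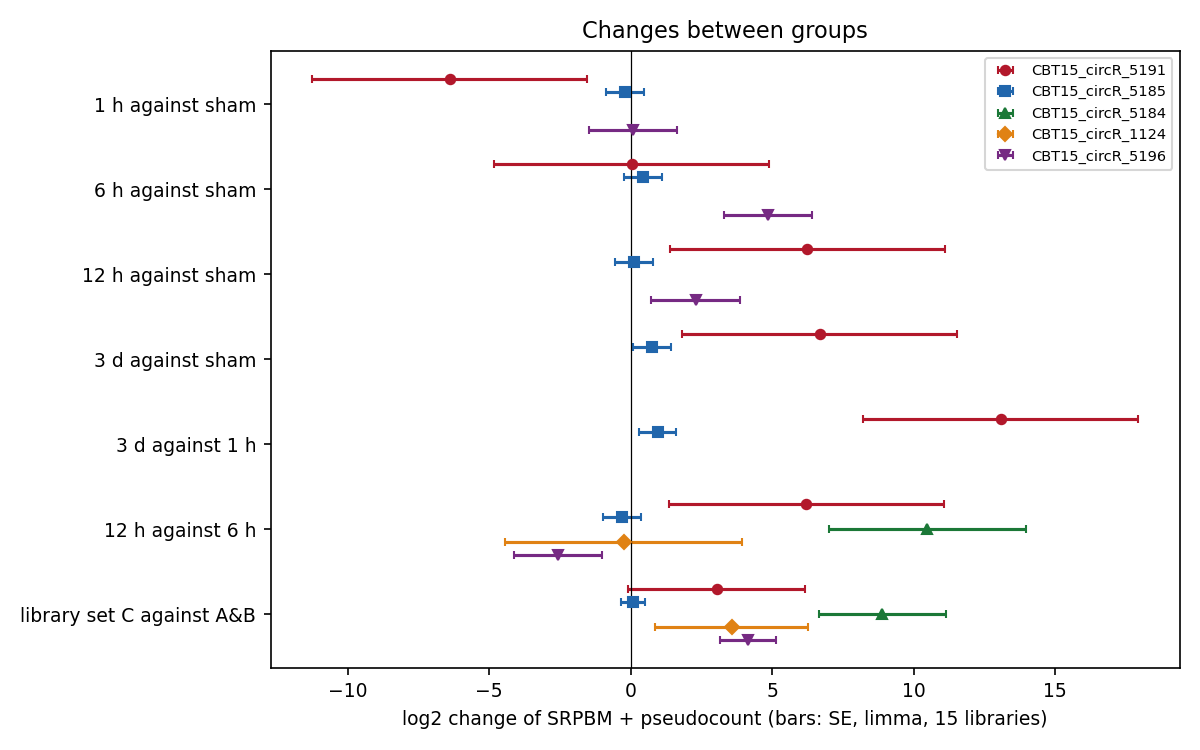
Log2 change of SRPBM plus the pseudocount, with bars of 1 SE from limma, for each circRNA and comparison in which both groups have a library that lists it. CBT15_circR_5185 stays between -0.31 and 0.95. The bars of CBT15_circR_5191 reach 4.86 to each side between groups and 3.14 between the library sets.

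Circular RNAs with levels most like those of the members over the 15 libraries were low. Among 7466 others listed in at least 8 libraries, CBT15_circR_24169 (Spearman rho 0.926) and CBT15_circR_36109 (0.921) were most like CBT15_circR_5185, with means of 60.6 and 60.4 SRPBM. CBT15_circR_37455 (0.897) and CBT15_circR_12208 (0.886) were most like CBT15_circR_5191, with means of 52.5 and 96.6 SRPBM. These are the highest of many correlations, the points share each library's depth and zeros, and they describe likeness only. In exactly the 5 libraries of CBT15_circR_5184 the table listed 1 other circRNA, CBT15_circR_30919 (mean 15.1 SRPBM), and in exactly the 3 of CBT15_circR_1124 it listed 22 others, led by CBT15_circR_17046 (16.9 SRPBM) and CBT15_circR_21599 (15.4 SRPBM). No other circRNA was listed in exactly the 7 libraries of CBT15_circR_5196.

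Rows with nearby running numbers are described next. By the rule, each of them has a lower row mean than the 4 dominant circRNAs, as has every other row. Within 15 numbers of CBT15_circR_5184, CBT15_circR_5185, CBT15_circR_5191 or CBT15_circR_5196 there were 39 other circRNAs, with a median row mean of 11.5 SRPBM against 5.5 for all others in the table, and 16 of them (41.0%, against 48.0%) were listed in 1 library. Within 15 numbers of CBT15_circR_1124 there were 30, with a median of 5.58 SRPBM, and 17 of them (56.7%) were listed in 1 library. The highest means among these neighbours were those of CBT15_circR_1120 (302 SRPBM, listed in all 15 libraries), CBT15_circR_5190 (268) and CBT15_circR_5194 (237). The last 2 were at 0 in most libraries as well. CBT15_circR_5190, the number before CBT15_circR_5191, was listed at 2164 and 1851 SRPBM in 12 h replicates 2 and 3 alone, and CBT15_circR_5194 at 3550 SRPBM in 6 h replicate 1 alone.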

How the data were processed

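The authors deposited 1 table of signal in 15 libraries of rat blood RNA, in SRPBM (reads across a back-splice, scaled to 1e9 mapped reads). The table's name credits find_circ. Per the submitters' processing notes, Bowtie 0.12.2 and the rat build Rnor_6.0 were used, without their role, and the thresholds for calling a circRNA are not stated. Steps between values gave the reads. Members and lists were chosen with earlier results of these data known.

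Groups were compared with limma 3.58.1 in R 4.3.3 (all 5 groups in 1 fit, Benjamini-Hochberg adjustment over 16767 circRNAs above 0 in at least 3 libraries) on log2(SRPBM + 23.2), the pseudocount being the median of the smallest values above 0. The fit was tested on simulated data with zeros placed at random, in which the changed circRNAs had few zeros. That test does not bear on members that are all or none. Tying the spread to mean abundance is an alternative here, since members that are all or none spread far more than circRNAs of like mean. Earlier work on these data used the fit with that tie. The main fit was thus chosen with the members' spread known, and that no member was called rests on this choice. Totals were compared with scipy 1.17.1 by exact permutation. The other circRNAs named are, by rule, the fifth by mean, the 2 most like each member and the 3 highest with numbers within 15. Other alternatives were the pseudocount, filter, scaling, replicate block, groups in the fit and libraries left out. Same-numbered libraries did not deviate together (2 of 30 pairs had r over 0.1).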

Additional observations from a re-analysis of the deposited data

Results flagged for a closer look

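Values that stood apart from the other libraries of their set by a gap larger than Dixon's 95% limit were sought in 16 groups of 5 to 9 libraries. Chance flags about 1 in 20 only where values are normally distributed, which members at 0 or at high levels are not. The number of flags is therefore not set against that rate. There were 6. CBT15_circR_5185 was at 4.90 M SRPBM in 3 d replicate 3, above the other 8 libraries of set A&B. In that set CBT15_circR_5184 was at 2.11 M SRPBM in 1 h replicate 2 and CBT15_circR_1124 at 2.02 M in 1 h replicate 3, with all other libraries of the set at 0. With a single value above 0 the gap is the whole range, so these flags were fixed by the zeros. CBT15_circR_5196 was at 0 SRPBM in 12 h replicate 3, the one library of set C without it. The members took 55.7% of the circRNA signal of 6 h replicate 3, the one library of set C without CBT15_circR_5191. The ratio of CBT15_circR_5191 to CBT15_circR_5185 was 5.15 in 3 d replicate 2, below the other 5 libraries of set A&B that list both.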

How the results depend on the processing

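The number of circRNAs called was 0 to 1 per comparison and moved by over 1.5 times in several settings. For 1 h against sham it went from 0 to 2 with no filter, 4 with the spread tied to abundance, and 1 with only the groups compared or without both libraries with the fewest circRNAs. For 6 h against sham it went from 1 to 16 with no filter, 8 with the spread tied to abundance, and 0 with a pseudocount of 1, a filter of 8 libraries, only the groups compared or without both those libraries. For 12 h against sham it went from 1 to 2 with no filter, 8 with the spread tied to abundance, and 0 with a pseudocount of 1, a filter of 8 libraries, scaling to total circRNA signal or without both those libraries. For 3 d against sham it went from 0 to 1 with no filter and 9 with the spread tied to abundance. For 3 d against 1 h it went from 0 to 6 with the spread tied to abundance, and 1 with only the groups compared or without both those libraries. For 12 h against 6 h it went from 0 to 21 with no filter and 2 with the spread tied to abundance. For set C against A&B it went from 1 to 4 with 10 times the pseudocount, 7 with no filter and 13 with the spread tied to abundance. Leaving out 1 library at a time gave 0 to 1 calls for 1 h against sham, 0 to 3 for 6 h and for 12 h against sham, 0 to 2 for 3 d against sham, 0 to 1 for 3 d against 1 h and 1 to 8 for the sets, the 8 without sham replicate 3.

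Same-numbered libraries share only a number: 5 of 15 libraries correlated best with one of their own number (1, 1 and 3 of the 5 libraries numbered 1, 2 and 3). The replicate block changed the calls for 12 h against sham from 1 to 0 and no other count.

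Of 561 member values under alternatives, 504 kept direction and side of the threshold, 18 passed it, 34 turned direction and 5 became 0 when the 1 library listing CBT15_circR_5184 or CBT15_circR_5196 was left out. Scaled to total circRNA signal, which the members dominate, the log2 change of CBT15_circR_5185 turned to 0.43 (1 h against sham), -0.16 (6 h), -0.81 (12 h), -0.39 (3 d), -0.82 (3 d against 1 h) and -0.50 (sets). Scaled to the signal outside the members it turned to -0.0152 (6 h), -0.25 (12 h) and -0.26 (sets), with median-ratio scaling to -0.0793 (12 h) and -0.15 (sets), and without both libraries with the fewest circRNAs to 0.0605 (1 h), -0.17 (12 h) and -0.19 (sets). CBT15_circR_5191 turned at 6 h against sham to -0.0619, -0.10 and -0.0885 with these 3 scalings and -6.29 without both libraries, and without both libraries to -0.0751 at 12 h and -0.10 between sets.

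Leaving out 1 library at a time, CBT15_circR_5185 ran from -0.62 to 0.36 (1 h against sham), -0.17 to 0.46 (12 h) and -0.0944 to 0.23 (sets). CBT15_circR_5191 ran from -6.29 to 6.36 (6 h against sham), 0.37 to 10.03 (3 d), -0.0751 to 9.59 (12 h) and -0.12 to 9.55 (12 h against 6 h). CBT15_circR_5196 (1 h against sham) ran from -0.81 to 1.02 where both groups kept a library that lists it. It was 1.88 without sham replicate 3 and -1.79 without 1 h replicate 2. Each of these leaves all libraries of a group at 0, so the size depends on the pseudocount. The value of -1.79 is not among the values counted above. CBT15_circR_1124 ran from -2.995 to 2.40 (12 h against 6 h). The signal outside the members ran from -1.03 to 0.565 M SRPBM for 3 d minus 1 h, from 0.357 (without 12 h replicate 2) to 1.10 (without 12 h replicate 3) for 12 h minus sham, and from 0.358 (without 1 h replicate 1) to 0.758 for set C minus A&B, the last without 1 h replicate 3 (exact permutation p = 0.042, unadjusted, against 0.191 with all libraries; 0.042 to 0.349 over the libraries left out). Over circRNAs listed in all 15 libraries the last 2 were 0.188 and 0.187. The cause of these turns was not tested, beyond which library was left out. The difference of the ratio of CBT15_circR_5191 to CBT15_circR_5185 between sets, an alternative chosen after seeing the data, ran from 0.472 to 0.641. With 3 libraries a group and members at 0 or at their highest levels, 1 library can set a group difference.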
